A study of Homo sapiens with 60 samples.

Results

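The mRNAs of 7 drug efflux pumps, ABCB1, ABCC1, ABCC2, ABCC3, ABCC4, ABCC5 and ABCG2, were followed in HT29, an established line of human colorectal adenocarcinoma cells, which had received herbal water extracts or vehicle for 24 h. The members were named by gene symbol and not by their values: all 7 were found, once each, among the 60675 genes of the table of RSEM estimated counts. Single herbs were citrus peel (Citri Unshius Pericarpium), cimicifuga (Cimicifugae Rhizoma), bupleurum (Bupleuri Radix) and aconite (Aconiti Lateralis Radix Preparata). Yijung-tang, Banhasasim-tang and Bojungikgi-tang are formulas that mix several herbs. By the sample labels the high, medium and low doses of every extract were 500, 100 and 20 µg/mL. The series' design text allows a lower top dose for extracts with a low inhibitory concentration, and no such dose is given in the labels of these samples. The vehicle is DMSO, at 0.1% by the sample labels and 2% by the series' design text. A DMSO percentage is recorded for the vehicle libraries only, so a difference in solvent cannot be told apart from extract against vehicle. Vehicle and 6 extracts had 3 libraries per group, whereas Bojungikgi-tang had 1 library per dose and entered no test. Replicates carry numbers in the labels, which do not say whether they were separate cultures, so p-values measure the spread between these libraries only.

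Efflux pumps of the ATP-binding cassette (ABC) family use ATP to move drugs, dietary compounds and their conjugates out of cells. In intestinal epithelium, ABCB1 (P-glycoprotein), ABCC2 (MRP2) and ABCG2 (BCRP) sit in the apical membrane and send substrates back to the lumen. ABCC1 (MRP1) and ABCC3 (MRP3) sit in the basolateral membrane and send them toward the blood, while ABCC4 (MRP4) and ABCC5 (MRP5) carry cyclic nucleotides and nucleotide analogs among other substrates. Transcription of several pumps is known to respond to receptors and factors that sense foreign compounds, among them PXR, the aryl hydrocarbon receptor and the oxidative stress factor NRF2. Only mRNA was measured here, not pump protein or transport.

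Promoter sequence is shown for ABCC2 and ABCG2, the apical pumps with the most changes described below. Windows of 250 bases before to 50 bases after an annotated start came from RefSeq (GRCh38.p14) and were found for 5 of the 7 pumps, 10 windows in all. They were searched on both strands for TGACNNNGC, the core of the antioxidant response element that NRF2 binds, and GCGTG, the core of the dioxin response element that the aryl hydrocarbon receptor binds. Of all 35116 RefSeq promoter windows, 13.3% hold the first and 36.5% the second. The single ABCC2 window holds neither. The 5 ABCG2 windows hold TGACNNNGC once and GCGTG 6 times, counting per window. Those that begin at 88158590, 88158810 and 88158860 overlap, and the last 2 of them hold the same GCGTG matches. Of the 5 windows, 1 with GCGTG and the window with TGACNNNGC are shown. Capitals mark motif matches, CACGC being GCGTG on the other strand.
ABCC2, chr10:99782390-99782689, plus strand: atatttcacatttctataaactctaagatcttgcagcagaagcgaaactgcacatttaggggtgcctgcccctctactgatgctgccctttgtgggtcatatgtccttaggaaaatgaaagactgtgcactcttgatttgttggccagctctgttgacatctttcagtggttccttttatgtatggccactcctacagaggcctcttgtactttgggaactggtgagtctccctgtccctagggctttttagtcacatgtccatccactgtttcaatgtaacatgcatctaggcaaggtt
ABCG2, chr4:88158860-88159159, minus strand: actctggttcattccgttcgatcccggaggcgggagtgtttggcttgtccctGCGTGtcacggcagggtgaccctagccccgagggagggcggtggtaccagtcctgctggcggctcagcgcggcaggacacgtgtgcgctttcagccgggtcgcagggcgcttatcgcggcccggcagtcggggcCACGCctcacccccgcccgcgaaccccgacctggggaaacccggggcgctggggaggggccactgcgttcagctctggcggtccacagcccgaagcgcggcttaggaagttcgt
ABCG2, chr4:88159241-88159540, minus strand: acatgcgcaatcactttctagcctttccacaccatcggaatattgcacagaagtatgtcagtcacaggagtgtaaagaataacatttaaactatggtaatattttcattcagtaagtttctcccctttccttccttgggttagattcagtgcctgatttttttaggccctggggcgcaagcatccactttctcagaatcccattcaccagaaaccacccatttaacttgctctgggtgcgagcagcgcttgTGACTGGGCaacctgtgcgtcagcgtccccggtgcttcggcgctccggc
ABCB1 holds GCGTG once in 2 windows, ABCC5 holds it once, and ABCC4 holds TGACNNNGC once and GCGTG 3 times, each of these in 1 window. A match is a stretch of letters, and no binding was measured.

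Values are CPM, counts per 1000000 counts of the library, on totals scaled by edgeR's TMM method, and CPM per kilobase of merged exons where levels of different genes are compared. In units of 1000000 estimated counts, library totals ran from 10.35 to 40.05 with a median of 23.83. A change is called where the Benjamini-Hochberg adjusted p of edgeR's quasi-likelihood test, over 16484 tested genes, is under 0.05. Log2 fold changes carry the standard error from 1 fit of 57 libraries in 19 groups. Its spread is estimated over all these groups, not from the compared groups alone. The 8 colon epithelium markers were detected in all 60 libraries, with KRT8 the highest, between 5010 and 7520 CPM. The lowest were CDX1 (0.502 to 1.71 CPM), CDX2 (4.17 to 6.98 CPM) and CDH17 (4.33 to 7.68 CPM). Of 12 markers of other cell types, PTPRC, CD3E, VWF, COL1A2, DCN, ALB and APOA2 never passed 0.155 CPM. The other 5 were detected in all 60 libraries. These were LYZ (1300 to 2240 CPM) and CD68 (3.46 to 12 CPM) of the leukocyte list, PECAM1 (0.926 to 2.66 CPM) of the endothelial list, and COL1A1 (0.365 to 2.03 CPM) and ACTA2 (0.489 to 1.51 CPM) of the fibroblast and smooth muscle list. These are bulk libraries, in which fewer cells of a type and less RNA per cell cannot be told apart. All titles name 1 batch, B, but the first part of the description codes differs. It is read here as a library set, which the labels do not explain. Vehicle has a code of its own, so extract and set cannot be told apart against vehicle. Citrus peel and cimicifuga share a set, as do bupleurum and aconite, and Yijung-tang and Banhasasim-tang. Aconite high 2 and Banhasasim-tang high 2 stood farthest from their groups, by root mean squares of 0.482 and 0.451 on the log2 scale. Across 16379 genes their deviations had a rank correlation with exon length of -0.28 and -0.40. Such a relation was not limited to them. Vehicle 1, which enters every comparison with vehicle, had -0.34, vehicle 3 had 0.28 and Banhasasim-tang high 3 had 0.35.

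ABCC3 mRNA was the most abundant of the 7 in every library. Its median was 55.1 CPM per kilobase, followed by ABCG2 at 16.9, ABCC1 at 14.3, ABCC4 at 11.7, ABCC5 at 1.24, ABCB1 at 0.146 and ABCC2 at 0.134. ABCC3 made up between 51.7% and 63.8% of the summed level of the 7 pumps. The order of ABCG2 and ABCC1 held in 55 of 60 libraries and that of ABCB1 and ABCC2 in only 36, so these neighbours were not separated in every library. Each of the other neighbouring pairs kept its order in all 60, although ABCC1 and ABCC4 came as close as a ratio of 1.00.

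**Figure D1:**
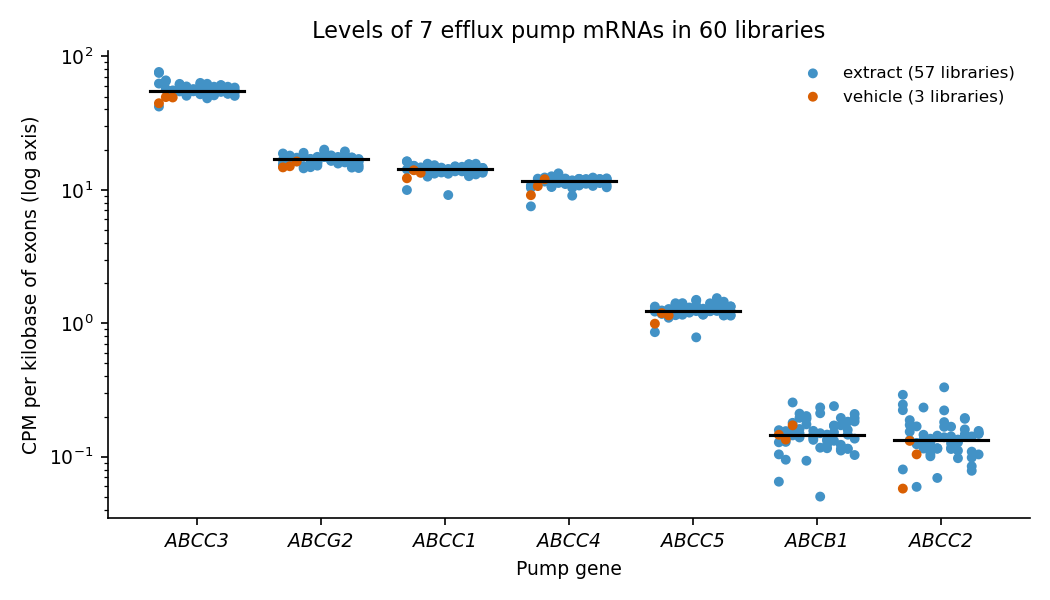
Level of each pump mRNA in 60 libraries, in CPM per kilobase of exons on a log axis, with 1 point per library and a line at the median. ABCC3, with a median of 55.1, lies above all others, and ABCB1 and ABCC2 overlap at the bottom with medians of 0.146 and 0.134.

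The counts behind these levels differed. ABCC3 had between 5552 and 22710 counts per library and ABCC2 between 5 and 76, so counting error weighs more on ABCC2. The median coefficient of variation within the 19 tested groups was 21.0% for ABCC2 and 17.4% for ABCB1, against 3.40% to 4.09% for ABCC1, ABCC3, ABCC4 and ABCG2 and 7.06% for ABCC5. No exon base of any pump is shared with another gene in GENCODE 29.

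In all, 18 of 294 pump tests in 42 comparisons passed, 16 higher and 2 lower. Against vehicle, 10 of 126 passed and all 10 were higher, which is 7.94% where 2.10% of tests over all genes passed. By dose within an extract, 4 were higher and 1 lower of 84, or 5.95% beside 1.10% over all genes. Between extracts of 1 library set, 2 were higher and 1 lower of 63, or 4.76% beside 1.46%. The calls fell on ABCC2, ABCC3 and ABCG2, apart from 1 each of ABCB1 and ABCC5. ABCC1 and ABCC4 had 0 calls in 42 comparisons in the main edgeR fit, with 1 and 4 tests respectively at an unadjusted p under 0.05.

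All pump calls lay in 9 of the 42 comparisons. Against vehicle there was 0 of 7 in every group other than the high doses of cimicifuga, bupleurum, aconite and Yijung-tang and the medium dose of aconite. The background for citrus peel was 0.0243%, 0% and 0.00607% of all genes at the high, medium and low dose, and for cimicifuga 0.0303% at the medium and 0% at the low dose. For bupleurum it was 0.406% at the medium and 0.801% at the low dose, and for aconite 1.61% at the low dose. Yijung-tang gave 1.64% at the medium and 1.51% at the low dose, and Banhasasim-tang 1.21%, 3.11% and 2.92% from high to low dose. Medium against low dose gave 0 pump calls of 7 in each extract, with 0.801% of all genes called in aconite and 0% in the other 5. Between extracts at the medium and low dose there were 0 pump calls, beside 0% and 0% of all genes for cimicifuga and citrus peel, 1.57% and 0.127% for aconite and bupleurum, and 0.206% and 0.188% for Banhasasim-tang and Yijung-tang. The high doses of these last 2 formulas differed in 0 of 7 pumps and 0.346% of all genes. In edgeR the tests of these comparisons with an unadjusted p under 0.05 numbered at most 3 of 7 in each.

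ABCC2, the apical exporter of glutathione, glucuronide and sulfate conjugates (ENSG00000023839, chromosome 10, 99782640 to 99852594, plus strand), showed the largest log2 changes of any pump. In vehicle its libraries read 0.452, 1.03 and 0.816 CPM. With the high dose of cimicifuga they read 2.59, 1.93 and 1.74 CPM, and with the low dose 1.05, 1.32 and 0.8705 CPM. All 3 high-dose libraries lay above every vehicle and low-dose library. The medium dose gave 0.895, 1.21 and 0.986 CPM, within the range of the low dose. Against vehicle ABCC2 rose by 1.37 ± 0.25 (edgeR adjusted p = 0.00046), and against the low dose by 0.96 ± 0.24 (edgeR adjusted p = 0.0298). In these comparisons 3 and 2 of the 7 pumps passed, where 1.33% and 0.904% of all genes did. The call against vehicle held without any 1 library. It was lost with only the compared groups in the edgeR fit (adjusted p = 0.0739) and with a replicate block (0.333). The call against the low dose ended without cimicifuga high 1 (adjusted p = 0.308) or 2 (0.0601) or low 1 (0.0995) or 3 (0.363). It was also lost with only the compared groups fitted (edgeR adjusted p = 0.055) and with the block (0.112).

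With aconite, too, the mean of ABCC2 was highest at the high dose. Its high-dose libraries read 2.28, 1.31 and 1.75 CPM, its medium-dose libraries 1.47, 1.31 and 1.35 CPM and its low-dose libraries 0.994, 0.764 and 0.971 CPM. High and low dose did not overlap, and aconite high 2, at 18 counts, sat level with the medium dose. ABCC2 rose by 1.17 ± 0.26 against vehicle (edgeR adjusted p = 0.00104) and by 0.99 ± 0.25 against the low dose (edgeR adjusted p = 0.00572). Aconite moved many genes at this dose: 15.9% of all tested genes passed against vehicle, where 2 of 7 pumps did, and 10.8% against the low dose, where 3 of 7 did. The call against the low dose ended without aconite low 2, at an adjusted p of 0.0501. With only the compared groups fitted, both calls were lost, at adjusted p values of 0.193 and 0.224. Both were also lost with a replicate block (edgeR adjusted p = 0.517 and 0.504). At the medium dose the change against vehicle was 0.77 ± 0.26 and did not pass (edgeR adjusted p = 0.0801).

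Within a library set, cimicifuga and citrus peel differed in ABCC2 at the high dose. Citrus peel libraries read 0.992, 1.255 and 0.902 CPM, all below the 3 cimicifuga libraries. The difference was 0.99 ± 0.23 (edgeR adjusted p = 0.0169) in a comparison where 0.886% of all genes passed and 2 of 7 pumps did. It ended without citrus peel high 1 (adjusted p = 0.119) or 3 (0.147) or cimicifuga high 1 (0.232). The difference between the dose effects of the 2 herbs, 0.99 ± 0.34, did not pass in edgeR (unadjusted p = 0.00584, adjusted p = 0.651), so a larger dose response in cimicifuga was not shown. Aconite against bupleurum at the high dose gave 0.67 ± 0.24, which did not pass (edgeR adjusted p = 0.0615). It did pass without aconite high 2 (0.81, adjusted p = 0.0426), without Banhasasim-tang high 2 (0.68, adjusted p = 0.0414) or without vehicle 1 (0.68, adjusted p = 0.0490). The last 2 libraries are outside the comparison and enter only through the scaling and the shared estimate of spread.

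Yijung-tang at the high dose had ABCC2 at 1.83, 1.53 and 1.05 CPM, all above vehicle. The change of 0.91 ± 0.27 did not pass (edgeR adjusted p = 0.0837). It passed narrowly without Banhasasim-tang high 2, a library outside the comparison (0.905, adjusted p = 0.0497). It also passed with a term for high RN7SL2, a small RNA described below (1.108, adjusted p = 0.0469). Against its low dose, at 0.907, 1.18 and 0.543 CPM, the groups overlapped. Citrus peel, bupleurum and Banhasasim-tang at the high dose averaged 1.05 ± 0.18, 1.14 ± 0.025 and 1.05 ± 0.40 CPM (SD, n = 3). None of these means was called against vehicle.

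ABCC3, the basolateral exporter of bile acids and glucuronides (ENSG00000108846, chromosome 17, 50634777 to 50692252, plus strand), lay above all 3 vehicle libraries in 52 of 54 libraries of the 6 tested extracts. The same count was 39 for ABCC5, 36 for ABCG2, 33 for ABCC1, 31 for ABCC2, 17 for ABCB1 and 13 for ABCC4. The share over all genes was not computed, so the count is not a result particular to ABCC3. For ABCC3, vehicle read 428, 476 and 473 CPM. Cimicifuga at the high dose read 608, 601 and 592 CPM, and bupleurum 582, 598 and 586 CPM. Both groups are tight and lie wholly above vehicle. Aconite read 734, 500 and 722 CPM at the high dose and 635, 599 and 625 CPM at the medium dose. Aconite high 2 is the low value of its group, below all 3 medium-dose libraries. The coefficient of variation was 20.2% in aconite high and 1.31% in cimicifuga high. The standard errors below come from the shared fit and do not show this difference. Against vehicle ABCC3 rose by 0.51 ± 0.085 with aconite high (edgeR adjusted p = 1.81e-05) and by 0.43 ± 0.085 with aconite medium (edgeR adjusted p = 0.000699), where 4.67% of all genes and 2 of 7 pumps passed. It rose by 0.39 ± 0.085 with cimicifuga high (edgeR adjusted p = 0.00627) and by 0.36 ± 0.085 with bupleurum high (edgeR adjusted p = 0.0161), where 1.52% of all genes and 2 of 7 pumps passed.

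Of these 4 calls, both aconite ones held without any 1 library. Without vehicle 1, whose ABCC3 was the lowest of the vehicle group, cimicifuga (0.34, adjusted p = 0.0912) and bupleurum (0.31, adjusted p = 0.146) no longer passed. Bupleurum was also lost without high 2 (adjusted p = 0.0741) or 3 (0.0574), and with a term for high RN7SL2, a small RNA high in 42 of the 57 libraries and in 0 of vehicle (0.28, adjusted p = 0.234). Aconite high was lost with only the compared groups fitted (adjusted p = 0.253). With a replicate block, aconite high (edgeR adjusted p = 0.548) and cimicifuga high (0.215) were lost. The other 14 comparisons with vehicle did not pass, and 10 of them had an unadjusted p under 0.05 with ABCC3 higher. All 18 share the same 3 vehicle libraries. Within library sets ABCC3 differed less. Aconite high against low, with the low dose at 529, 569 and 534 CPM, gave 0.26 ± 0.085 (edgeR adjusted p = 0.037), but the groups overlapped through aconite high 2. That call ended without any 1 of 5 of its 6 libraries: aconite high 1 (adjusted p = 0.172) or 3 (0.153), or low 1 (0.126), 2 (0.0537) or 3 (0.0969). It was also lost with only the compared groups fitted (edgeR adjusted p = 0.653) and with a replicate block (0.853). Without aconite high 2 the change was 0.42 (adjusted p = 2.94e-05). In the other 11 dose comparisons and all 9 between extracts there was no ABCC3 call in the main fit, but some passed in other edgeR fits. Without aconite high 2, aconite exceeded bupleurum at the high dose (0.31, adjusted p = 0.0033) and the medium dose (0.24, adjusted p = 0.0345). Cimicifuga high against low passed with only the compared groups fitted (0.21, adjusted p = 0.0412).

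ABCG2, the apical exporter of sulfated compounds, flavonoids and urate (ENSG00000118777, chromosome 4, 88090264 to 88231322, minus strand), changed by less on the log2 scale but with little spread. Vehicle read 74.2, 75.7 and 82.2 CPM. Cimicifuga read 98.0, 94.4 and 101 CPM at the high dose, 83.6, 87.2 and 83.1 CPM at the medium dose and 79.3, 84.8 and 85.4 CPM at the low dose. The high dose stood clear of all other cimicifuga and vehicle libraries. ABCG2 rose by 0.34 ± 0.055 against vehicle (edgeR adjusted p = 0.000102) and by 0.23 ± 0.055 against the low dose (edgeR adjusted p = 0.0209). The call against vehicle held without any 1 library and was lost with a replicate block (edgeR adjusted p = 0.193). Citrus peel at the high dose read 75.8, 80.9 and 73.0 CPM, the lowest mean of any group and overlapping vehicle. Cimicifuga exceeded it by 0.35 ± 0.055 (edgeR adjusted p = 6.44e-05). This difference held without any 1 library, with the highest adjusted p at 0.00255, and under each alternative fit. The change against the low dose ended without any 1 of 5 libraries: cimicifuga high 1 (adjusted p = 0.0957) or 3 (0.158), or low 1 (0.186), 2 (0.0611) or 3 (0.0515). It also ended without a filter on low counts (edgeR adjusted p = 0.289) and with a replicate block (0.0685). The difference between the 2 dose effects, 0.25 ± 0.078, did not pass in edgeR (unadjusted p = 0.00248, adjusted p = 0.454).

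Yijung-tang at the high dose had ABCG2 at 91.0, 97.8 and 95.5 CPM, all above vehicle and above its own low dose at 83.0, 85.8 and 89.1 CPM. The rise against vehicle was 0.29 ± 0.056 (edgeR adjusted p = 0.00314), the only pump call of 7 there, where 1.14% of all genes passed. It held without any 1 library and was lost with only the compared groups fitted (adjusted p = 0.0827). The change of 0.14 ± 0.056 against its low dose did not pass. Bupleurum at the high dose, at 86.9, 89.8 and 91.0 CPM, rose by 0.21 ± 0.055 (edgeR adjusted p = 0.042). Aconite at the medium dose, at 86.2, 87.5 and 91.0 CPM, rose by 0.19 ± 0.056 (edgeR adjusted p = 0.0366). These last 2 calls were weak. Bupleurum ended without vehicle 1 (adjusted p = 0.235) or 2 (0.154) or without any of its own libraries (0.0712 to 0.170), and aconite without vehicle 1 (0.180) or 2 (0.132) or any of its own (0.0687 to 0.161). Without a filter on low counts neither passed (adjusted p = 0.186 and 0.228).

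Aconite at the high dose did not carry the rise of ABCG2. Its libraries read 75.6, 88.7 and 78.7 CPM, overlapping vehicle, although ABCC2 and ABCC3 were called there. Aconite high 2 was the highest of the 3 for ABCG2 and the lowest for ABCC3. Against bupleurum at the high dose the difference was -0.14 ± 0.055 (edgeR adjusted p = 0.0929). Without aconite high 2 it was -0.21 and passed (adjusted p = 0.0164), and the difference of the dose effects of the 2 herbs moved from -0.22 ± 0.078 (adjusted p = 0.186) to -0.29 (adjusted p = 0.0303). So whether ABCG2 follows a different dose course in aconite and bupleurum rests on 1 library.

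**Figure D2:**
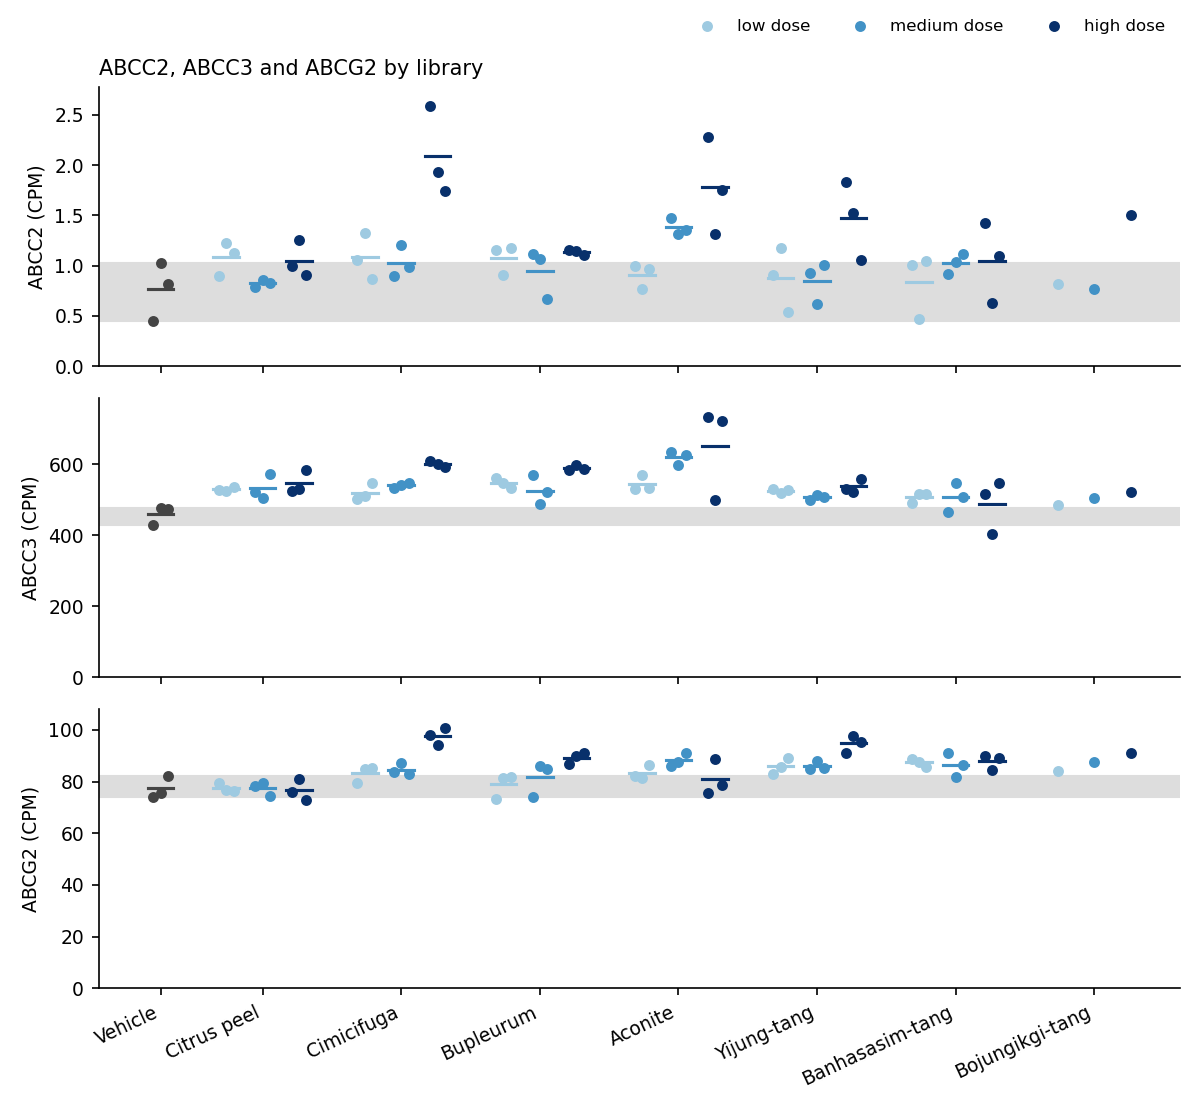
ABCC2, ABCC3 and ABCG2 in CPM, with 1 point per library by extract and dose, a line at each group mean and a grey band over the vehicle range. Cimicifuga high libraries lie above the band for all 3 pumps, and aconite high libraries do so for ABCC2 and ABCC3.

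ABCB1, the broad apical drug exporter (ENSG00000085563, chromosome 7, 87503633 to 87713323, minus strand), was near the limit of counting, with 4 to 46 counts per library. Aconite at the high dose read 0.744, 0.292 and 0.604 CPM and at the low dose 0.959, 0.764 and 1.48 CPM. The groups did not overlap, but the nearest values were 0.744 and 0.764 CPM. ABCB1 fell by 0.86 ± 0.29 (edgeR adjusted p = 0.0498). That call ended without any 1 of 47 of the 57 libraries, among them aconite high 2 (-0.65, adjusted p = 0.224) or 3 (0.0740) and aconite low 1 (0.0746) or 3 (0.255), and it was not made by DESeq2 (adjusted p = 0.0670). Vehicle, at 0.848, 0.780 and 0.997 CPM, did not differ detectably from the high dose at this depth, nor was ABCB1 called in any other comparison. Yijung-tang at the high dose had the highest mean, 1.16 ± 0.049 CPM (SD, n = 3), with no call.

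ABCC1, the basolateral exporter of glutathione conjugates (ENSG00000103222, chromosome 16, 15949577 to 16143074, plus strand), varied little. Vehicle read 92.4, 106 and 102 CPM and bupleurum at the high dose 118, 119 and 118 CPM, the largest change against vehicle at 0.24 ± 0.10 (edgeR adjusted p = 0.286). The 18 changes against vehicle ran from -0.04 to 0.24. Aconite at the high dose read 124, 69.2 and 123 CPM, with aconite high 2 far below the other libraries. Without it, ABCC1 was called against vehicle at 0.30 (adjusted p = 0.00398), and the change against the low dose was 0.20 (adjusted p = 0.116). Bupleurum high was then also called against vehicle (0.235, edgeR adjusted p = 0.0493), although aconite high 2 is outside that comparison. Banhasasim-tang high 2, at 75.5 CPM beside 108 CPM in each of the other 2, was low in the same way. The deviations of both libraries from their groups were related to exon length, and the part of this in the pump values was not tested.

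ABCC4, which exports cyclic nucleotides and prostaglandins (ENSG00000125257, chromosome 13, 95019829 to 95301475, minus strand), stayed between 64.9 and 115 CPM. The 18 changes against vehicle ran from -0.08 to 0.20, and vehicle itself spread from 78.7 to 104 CPM. Aconite at the high dose, at 89.3, 78.0 and 92.1 CPM, lay below its low dose, at 99.6, 102 and 100 CPM, by 0.21 ± 0.089, and below bupleurum, at 99.5, 103 and 105 CPM, by 0.24 ± 0.089. Neither passed in edgeR (adjusted p = 0.117 and 0.0757). Both passed without Banhasasim-tang high 2, a library outside the comparisons, at -0.21 (adjusted p = 0.0301) and -0.24 (adjusted p = 0.0140).

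ABCC5, a carrier of cyclic nucleotides and nucleotide analogs (ENSG00000114770, chromosome 3, 183919934 to 184018015, minus strand), was called once. Aconite at the high dose read 14.4, 8.97 and 13.99 CPM and bupleurum 17.65, 16.2 and 15.4 CPM. Aconite was lower by a log2 value of -0.36 ± 0.11 (edgeR adjusted p = 0.0282), in a comparison where 9.86% of all genes and 1 of 7 pumps passed. Without aconite high 2 the difference was -0.21 (adjusted p = 0.323), and the call also ended without bupleurum high 1 (0.138) or 2 (0.0643) or with only the compared groups fitted (0.566). Cimicifuga high (17.1, 15.3 and 16.9 CPM) and bupleurum high lay wholly above vehicle (11.4, 13.6 and 13.1 CPM), each by 0.36 ± 0.11, without passing (edgeR adjusted p = 0.102 and 0.0859). Both passed without aconite high 2, at adjusted p values of 0.0282 and 0.0263.

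**Figure D3:**
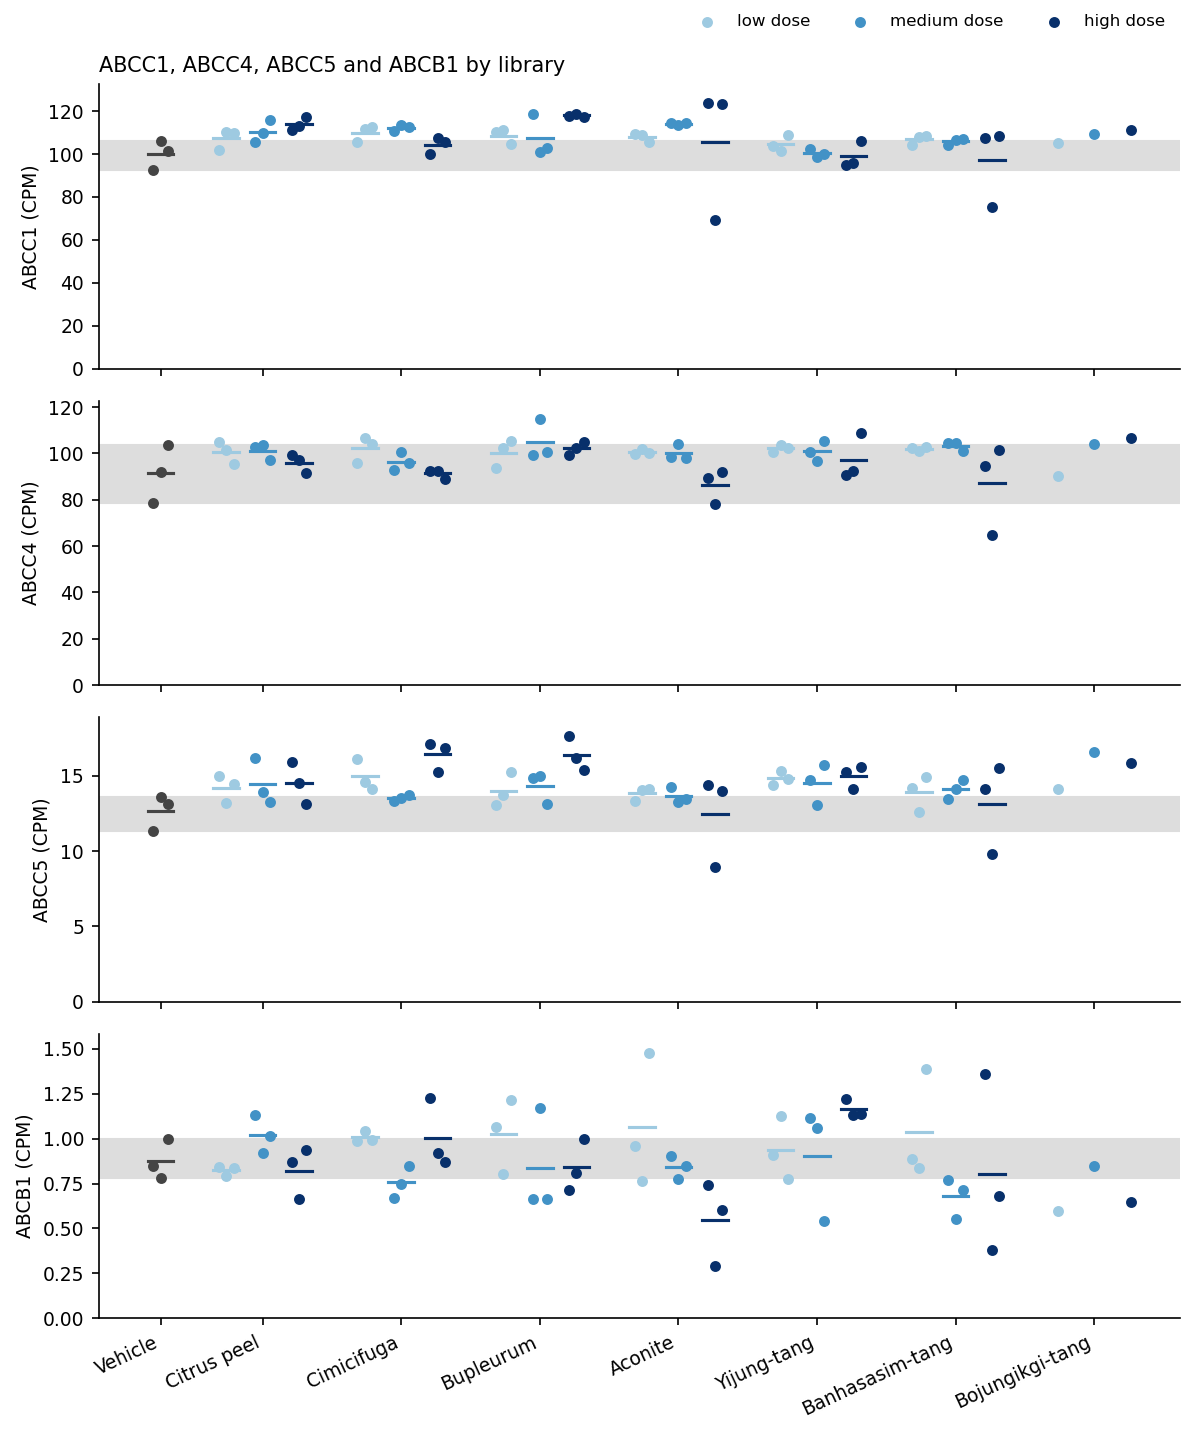
ABCC1, ABCC4, ABCC5 and ABCB1 in CPM, with 1 point per library by extract and dose, a line at each group mean and a grey band over the vehicle range. Aconite high 2, at 69.2 CPM for ABCC1 and 8.97 CPM for ABCC5, lies far below the other libraries of its group.

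Across doses, the pumps did not move as a block. For high against low dose, the median change of the 7 pumps was 0.14 in cimicifuga, 0.11 in bupleurum, 0.03 in Yijung-tang, 0.00 in citrus peel, -0.04 in aconite and -0.08 in Banhasasim-tang, and the median over all tested genes lay within 0.01 of 0 in each. Citrus peel, bupleurum, Yijung-tang and Banhasasim-tang had 0 pump calls of 7, where 0.0667%, 0.297%, 0.103% and 0.231% of all genes passed. In the edgeR test 0, 2, 2 and 1 of their pump tests had an unadjusted p under 0.05. The 3 tests of a difference between dose effects gave 0 calls of 21 in edgeR, 5 of them with an unadjusted p under 0.05, and DESeq2 gave 0 as well. Over all genes, 0.115% passed for cimicifuga and citrus peel, 1.8% for aconite and bupleurum and 0% for Banhasasim-tang and Yijung-tang.

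**Figure D4:**
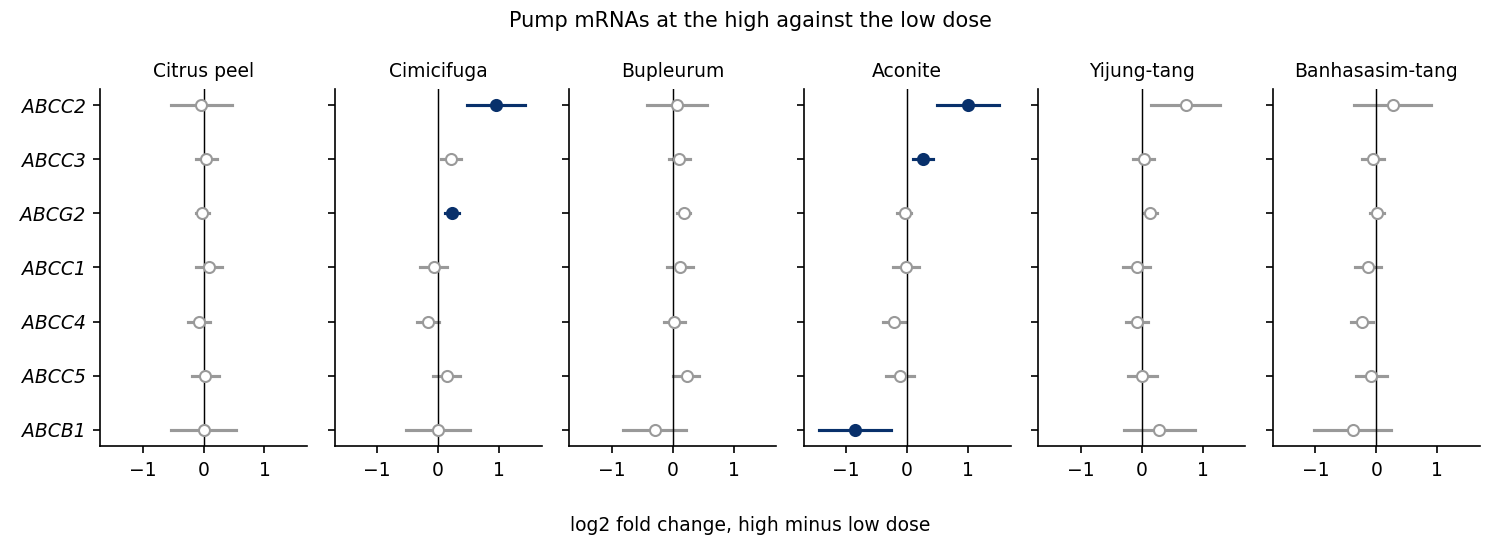
Change of each pump mRNA from low to high dose in 6 extracts, as a log2 fold change with its 95% interval, filled where edgeR's adjusted p was under 0.05. ABCC2 is called in cimicifuga (0.96) and aconite (0.99), and citrus peel has all 7 pumps near 0.

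Summed over the 7 pumps, the level was 88.2 ± 5.68 CPM per kilobase in vehicle (SD, n = 3). It was 108 ± 0.473 with cimicifuga high, 108 ± 1.27 with bupleurum high and 110 ± 1.68 with aconite medium. Of the 18 groups of the tested extracts, 16 lay wholly above the vehicle range of 81.8 to 92.3. The exceptions were aconite high, from 88.8 to 120, and Banhasasim-tang high, from 77.3 to 102, which hold the libraries aconite high 2 and Banhasasim-tang high 2. The sum is mostly ABCC3, at 51.7% to 63.8% of it in each library. All 18 groups are set against the same 3 vehicle libraries, which form a library set of their own. The share of all genes that lay wholly above vehicle in this way was not computed.

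Other parts of the same detoxification system were read in the same high against low comparisons. The lists were drawn up with earlier results of these data known, so their counts are a description. For each list the share of all tested genes called in the same comparison applies: 0.0667% for citrus peel, 0.904% for cimicifuga, 0.297% for bupleurum, 10.8% for aconite, 0.103% for Yijung-tang and 0.231% for Banhasasim-tang. Of 17 NRF2 targets, 14 were higher with cimicifuga, 8 with bupleurum, 17 with aconite and 0 with citrus peel, Yijung-tang and Banhasasim-tang, and none was lower. Their median change was 0.45, 0.28 and 0.55 in the first 3 herbs. HMOX1, which degrades heme, rose by 1.09 ± 0.089 with cimicifuga and 1.199 ± 0.089 with aconite (edgeR adjusted p = 6.5e-12 and 2.52e-14). GCLC and GCLM, the subunits of the enzyme that starts glutathione synthesis, rose by 0.53 ± 0.049 and 0.82 ± 0.074 with cimicifuga and by 0.70 ± 0.050 and 0.73 ± 0.074 with aconite. SLC7A11, the cystine importer that feeds glutathione synthesis, rose by 0.73 ± 0.090 and 1.22 ± 0.090. ABCC2 was called by dose with cimicifuga and aconite and not with the other 4 extracts, bupleurum included.

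Of 8 aryl hydrocarbon receptor targets, 7 were higher with cimicifuga, 6 with bupleurum, 7 with aconite, 2 with Yijung-tang, 1 with Banhasasim-tang and 0 with citrus peel, beside 0.904%, 0.297%, 10.8%, 0.103%, 0.231% and 0.0667% of all genes in that order. CYP1A1, a cytochrome P450, rose by 2.10 ± 0.33 with cimicifuga, 2.90 ± 0.29 with bupleurum and 4.69 ± 0.17 with aconite (edgeR adjusted p = 4.45e-05, 3.63e-09 and 2.41e-25), from 3.90 to 102 CPM in aconite. ALDH3A1, an aldehyde dehydrogenase, rose by 1.17 ± 0.081, 0.92 ± 0.080 and 1.47 ± 0.080 in the same order. CYP1B1 rose by 0.64 ± 0.093, 0.84 ± 0.092 and 1.47 ± 0.091, and ALDH1A3 by 0.50 ± 0.076, 0.45 ± 0.074 and 0.97 ± 0.072. With bupleurum, where targets of both lists were called, ABCC2 read 1.15, 1.14 and 1.11 CPM at the high dose and 1.16, 0.905 and 1.18 CPM at the low dose, and the groups overlapped. The relation of either list to ABCC2 was not tested.

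Conjugating enzymes make the glucuronides, sulfates and glutathione adducts that MRP pumps export. Of 18 tested, 2 were higher with cimicifuga, 2 with bupleurum, 7 with aconite, 1 with Yijung-tang and 0 with the other 2 extracts, beside 0.904%, 0.297%, 10.8% and 0.103% of all genes in the first 4. UGT1A6 rose by 0.63 ± 0.088, 0.56 ± 0.088 and 0.68 ± 0.089 in cimicifuga, bupleurum and aconite, and UGT1A10 by 0.28 ± 0.061 in cimicifuga and 0.47 ± 0.062 in aconite. UGT1A8 rose by 0.48 ± 0.093 in aconite, and UGT1A1 by 0.47 ± 0.076 in bupleurum and 0.38 ± 0.077 in aconite. The UGT1A genes share exons, so reads were divided between them by RSEM and each value is uncertain. UGT1A6 is also among the aryl hydrocarbon receptor targets. UGT1A1 was the only called gene of 4 tested PXR targets. The others were CYP2B6 at 0.32 ± 0.15, CYP3A5 at -0.06 ± 0.059 and CYP3A7 at -0.11 ± 0.44 in aconite. The PXR gene itself, NR1I2, never passed 0.466 CPM and CYP3A4 never passed 5 counts, so both were untested.

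Of 11 tested drug uptake transporters, 1 was higher with cimicifuga, 2 with bupleurum and 3 with aconite, beside 0.904%, 0.297% and 10.8% of all genes. SLC22A3, an importer of organic cations, rose by 0.40 ± 0.096, 0.43 ± 0.093 and 1.08 ± 0.090 in that order (edgeR adjusted p = 0.0231, 0.0159 and 1.16e-12). SLCO4A1 and SLCO1B3, importers of organic anions, rose by 0.38 ± 0.093 and 0.44 ± 0.13 with aconite. SLC28A3, a nucleoside importer, rose by 0.33 ± 0.076 with bupleurum. Of 9 other efflux transporters only SLC47A2, a proton-coupled exporter of organic cations, was called, with aconite, from 0.714 to 1.59 CPM (1.21 ± 0.27, edgeR adjusted p = 0.00171). A share of 1 in 9 is near the 10.8% of all genes called there. ABCC11, ABCB4 and SLC47A1 were below 1 CPM in these groups and had no call.

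Of 13 tested transcription factors and receptors, NFE2L2, which encodes NRF2, rose by 0.16 ± 0.051 (edgeR adjusted p = 0.0342) and HNF4A, a factor of intestinal and hepatic identity, fell by 0.32 ± 0.082 (edgeR adjusted p = 0.0065), both with aconite. A count of 2 of 13 is near the background of 10.8% in that comparison, as is that of 1 of 7 for the apical scaffold genes. ARNT, the partner of the aryl hydrocarbon receptor, was at -0.15 ± 0.090 and BACH1, a repressor of NRF2 targets, at 0.03 ± 0.089 there, without passing. No member of this list was called in the other 5 extracts. Of 7 apical scaffold genes, which tie membrane proteins to the cytoskeleton, RDX, whose product radixin is known to hold ABCC2 at the apical membrane in liver, rose by 0.19 ± 0.057 with aconite (edgeR adjusted p = 0.0262). EZR, SHANK2 and NHERF4 had no call there, at -0.06 ± 0.040, -0.51 ± 0.23 and -0.31 ± 0.13.

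The genes whose group means most resembled each pump were sought among 11256 genes, by Pearson's r of mean log2 CPM over the 19 groups of 3 libraries, as a description. For ABCC2 they were ABCB6 (r = 0.900), HMOX1 (0.872) and SPSB1 (0.871), for ABCC3 LRP8 (0.929), TBC1D2 (0.923) and AHCYL1 (0.920), and for ABCG2 NAT1 (0.780), UGDH (0.743) and TCN1 (0.733). ABCC1 was most like AHDC1 (0.930), MAP4 (0.906) and POLR1A (0.905). ABCC4 was most like CERS6 (0.966), PEAK1 (0.961) and WDFY3 (0.960). For ABCC5 and ABCB1 the closest were B4GALT5 (0.822) and FOXO4 (0.859), followed by RPGRIP1L (0.816) and BCL2L11 (0.812) for ABCC5 and ZNF45 (0.833) and ZDHHC7 (0.831) for ABCB1. Among the pumps themselves ABCC2 and ABCC3 were closest (0.78), then ABCC1 and ABCC4 (0.55) and ABCB1 and ABCC5 (0.54), whereas ABCC2 and ABCC4 had the lowest r (-0.41). The points share library sets and the vehicle group.

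Bojungikgi-tang had 1 library per dose, so its values have no replicate check. At the high dose ABCC2 was counted 21 times, 1.51 CPM with a 95% exact Poisson interval of 0.932 to 2.30 that covers counting error only. This lies above the vehicle range of 0.452 to 1.03 CPM, but the interval reaches into it. At the medium and low dose ABCC2 read 0.772 and 0.815 CPM. ABCC3 read 523, 504 and 486 CPM and ABCG2 91.2, 87.7 and 84.3 CPM from high to low dose, above all vehicle libraries at each dose. ABCC5 read 15.9, 16.6 and 14.1 CPM, also above vehicle throughout, and ABCB1 had 9 to 11 counts. On the log2(CPM + 1) scale the ratios to the vehicle mean at the high dose were 0.50 for ABCC2, 0.30 for ABCC5, 0.23 for ABCG2, 0.22 for ABCC4, 0.19 for ABCC3, 0.15 for ABCC1 and -0.19 for ABCB1. Over 10713 genes at 5 CPM or more in vehicle, the 5th and 95th percentiles of that ratio were -0.32 and 0.28. ABCC2 and ABCB1, at vehicle means of 0.766 and 0.875 CPM, are not among these genes, so the range does not apply to them.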

How the data were processed

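RNA was sequenced from 60 HT29 libraries in 22 groups. Per the labels' protocols, RNA with an integrity number above 7 was used, 1 µg per library, with a directional kit and 100 bp read pairs. Per the submitters' processing notes the tools were RSEM 1.3.3, STAR 2.7.3a, Trim Galore 0.6.5 and FastQC 0.11.9, and the build was GRCh38. The annotation is not given in the sources used here. The authors deposited RSEM estimated counts (expected counts) per gene, without normalization. The table holds 270 columns, of which 60 matched the labels and 210 were not used. Counts were rounded (8.68% were not whole). No row named anything but a gene (0 rows). Gene symbols matched 56558 identifiers and GENCODE 29 positions 57055.

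One edgeR 4.0.16 model (R 4.3.3) of group means was fitted to 57 libraries in 19 groups, with TMM scaling and filterByExpr by group, and tested by quasi-likelihood in 42 comparisons: 18 against vehicle, 12 by dose, 9 between extracts of 1 set and 3 differences of dose effects. p-values were adjusted within each comparison over 16484 genes. The common biological coefficient of variation was 8%. The scripts were tested on simulated data. Alternatives were DESeq2 1.42.0, DESeq2's size factors, no filter, only the compared groups, a replicate block, a term for RN7SL2 (high in 42 of 57 libraries), leaving out each library, and leaving out vehicle 1, bupleurum medium 2, aconite high 2 and Banhasasim-tang high 2 together. Those 4 libraries, the 7 pumps and the gene lists were chosen with earlier results of these data known. Fits without 1 library kept the tested genes and the dispersion trend of the full fit. This was chosen for running time after slower versions had been run. A version that estimated everything anew changed few pump calls, among them ABCC2 with aconite high against low without aconite low 2, which passed there and not in the version reported. All 7 pumps are named in every comparison. From each other list those with the lowest adjusted p in the high against low comparisons are named, at most 4 per list, and for each pump the 3 genes most like it. Depth sets precision: ABCC2 and ABCB1 rest on few counts, so a change of their mRNA is less precise than that of the other pumps.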

Additional observations from a re-analysis of the deposited data

How the results depend on the processing

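Changes of pumps against vehicle numbered 10 with all groups fitted, 4 with only the compared groups and 4 with a replicate block, and 8 to 15 under the other 5 alternatives. Changes of pumps by dose numbered 5, and 3 without a filter on low counts, 8 without the 4 libraries that stand apart, 2 with only the compared groups and 1 with a replicate block. Pump differences between extracts of one set numbered 3, and 7 without the 4 libraries. Differences of dose effects numbered 0, and 2 without the 4 libraries. Leaving out 1 library at a time gave 6 (vehicle 1) to 19 (aconite high 2) calls against vehicle, 2 (cimicifuga low 1 or 3) to 6 (Banhasasim-tang high 2) by dose, 2 to 6 (aconite high 2) between extracts and 0 to 1 (aconite high 2) differences of dose effects. Of the 18 pump calls, 17 were shared by DESeq2, 17 by DESeq2's size factors, 14 without a filter, 14 with the RN7SL2 term, 7 with only the compared groups, 5 with the block and 16 without the 4 libraries, which gave 32 calls in all. In 0 of the comparisons did every same-numbered pair of libraries correlate above 0.1, the rule set for pairing. This rule cannot exclude a weaker pairing. For citrus peel high against low, all 3 high-dose libraries correlated best with the same-numbered library, at 0.06 each. Among citrus peel and cimicifuga libraries, RN7SL2 was high in replicate 3 only. Reversed values were those of ABCC1: 0.20 for aconite high against low without the 4 libraries (edgeR adjusted p = 0.00224) and 0.20 without aconite high 2 (0.116), and -0.04 for aconite high against vehicle without aconite high 1 (0.857) or 3 (0.852). Over all fits without 1 library these ABCC1 changes ran from -0.15 to 0.20 and from -0.04 to 0.30. The fits of only the compared groups estimate the spread from fewer libraries and from those groups alone. The causes of these differences between fits were not tested. Depth limits ABCC2 and ABCB1 most, with 5 to 76 and 4 to 46 counts per library.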
